A study of Rattus norvegicus with 17 samples.

Results

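The genes followed here, 9 in number, are linked to inherited parkinsonism or to its close relatives. They are Park7, Pink1, Vps35, Atp13a2, Fbxo7, Uchl1, Mapt, Lrrk2 and Pla2g6. They were taken from a written list by symbol, not by their values, and 9 of the 9 listed genes were present among the 11247 genes of the deposited table. The samples were cultures from rat cerebral cortex, labelled as primary glutamatergic neurons with astrocytes. Cultures carrying α-synuclein A53T, an inherited mutant of a synaptic protein found in Lewy bodies, were given the solvent DMSO (2 libraries), 0.2 µM FK506 (3) or 2.0 µM FK506 (3). Cultures with an empty vector had the same treatments, in 3 libraries each. FK506 binds the immunophilin FKBP12, and the complex inhibits calcineurin, a phosphatase that calcium activates; the labels describe the lower dose as short of saturation and the higher one as saturating. The constructs were brought in by infection, according to the series' design text; the kind of vector, the promoter, the cells that took it up and whether replicates were grown apart are not stated in those sources. The p-values therefore cover the scatter among these samples, and that scatter may be technical.

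The products of these genes work at several places in the cell. PINK1 is a kinase that accumulates on damaged mitochondria and recruits the ubiquitin ligase Parkin, with which FBXO7, the substrate-binding subunit of an SCF ubiquitin ligase, also acts, while PARK7 (DJ-1) is a redox-sensitive protein. ATP13A2 exports polyamines from lysosomes, VPS35 is the core of the retromer that returns cargo from endosomes, and the kinase LRRK2 phosphorylates Rab GTPases of the same membranes. UCHL1 is an abundant neuronal ubiquitin hydrolase, MAPT (tau) binds axonal microtubules, and PLA2G6 is a calcium-independent phospholipase A2 that remodels membrane phospholipids.

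Values are the authors' normalized gene counts, and the sum of these per library ran from 15091428 to 18335540; raw depth is unknown, so no counting error is given. Pairs among the 3 A53T libraries at 0.2 µM showed 0.995 to 1.05 times the difference that Poisson sampling gives when the normalized values are treated as counts, and pairs in the other groups 1.48 to 14.5 times. This was read over genes with means of 10 to 3000. The 3 libraries thus differed by about as little as repeated sampling of 1 library would give, which normalized values show only approximately, and were averaged into 1 sample. The labels' cell types were present: the glutamatergic marker Slc17a7 averaged 6165 and the astrocyte marker Gfap 2.205e+04 normalized counts over all libraries, and 10 of 12 markers of GABAergic interneurons were also measured, Sst among them at 9615. Of the markers of microglia 1 of 12 was measured (Cd68), and of those of endothelium 1 of 9 (Flt1). The libraries also spread along an axis shared across groups, on which the A53T libraries at 0.2 µM scored 5.62 to 5.67 and all others between -2.73 and 1.72. The summed level of 72 ribosomal protein genes, which moved with this axis, was 324446 to 328674 in the A53T libraries at 0.2 µM and 619901 to 1579389 in the others.

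The clearest pattern among the 9 genes was a lower level of Atp13a2 and Pink1. Both fell in A53T cultures relative to vector cultures in DMSO, both fell in vector cultures at each FK506 dose, and neither passed the test at 2.0 µM in A53T cultures. The count of genes past the threshold is set against all genes in the same comparison, with a threshold of 0.05 on limma's adjusted p. In A53T against vector in DMSO, 2 of the 9 genes passed, both lower, and 14.0% of all genes did (5.85% higher, 8.19% lower). In vector cultures, 3 of 9 passed at 0.2 µM (1 higher, 2 lower), where 18.3% of all genes did (7.70% higher, 10.6% lower), and 6 of 9 at 2.0 µM (2 higher, 4 lower), where 47.2% did (23.4% higher, 23.8% lower). Between the doses in vector cultures, 4 of 9 passed (1 higher, 3 lower) at 2.0 against 0.2 µM, and 33.7% of all genes did (18.0% higher, 15.7% lower). In A53T cultures at 2.0 µM, 3 of 9 passed (2 higher, 1 lower), and 37.6% of all genes did (19.7% higher, 17.9% lower).

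The median log2 fold change of the 9 genes in A53T against vector in DMSO was -0.16, against 0.01 for all genes. At 0.2 and 2.0 µM against DMSO in vector cultures the medians of the 9 genes were -0.27 and -0.26, against 0.00 for all genes in each. At 2.0 µM the median was -0.04 in A53T cultures against DMSO and 0.13 between genotypes, against 0.01 and -0.00 for all genes. Without regard to sign, the median change in A53T against vector in DMSO was 0.16, against 0.20 for all genes. In vector cultures it was 0.27 against 0.20 at 0.2 µM and 0.30 against 0.32 at 2.0 µM. The share of the 9 genes past the threshold lay near the share of all genes in several comparisons. The value after a gene in what follows is its log2 fold change ± standard error, and the plot of fold changes by comparison shows these together. Vector cultures in DMSO are the base of both the A53T comparison and the vector FK506 comparisons, which therefore share their control libraries.

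**Figure D1:**
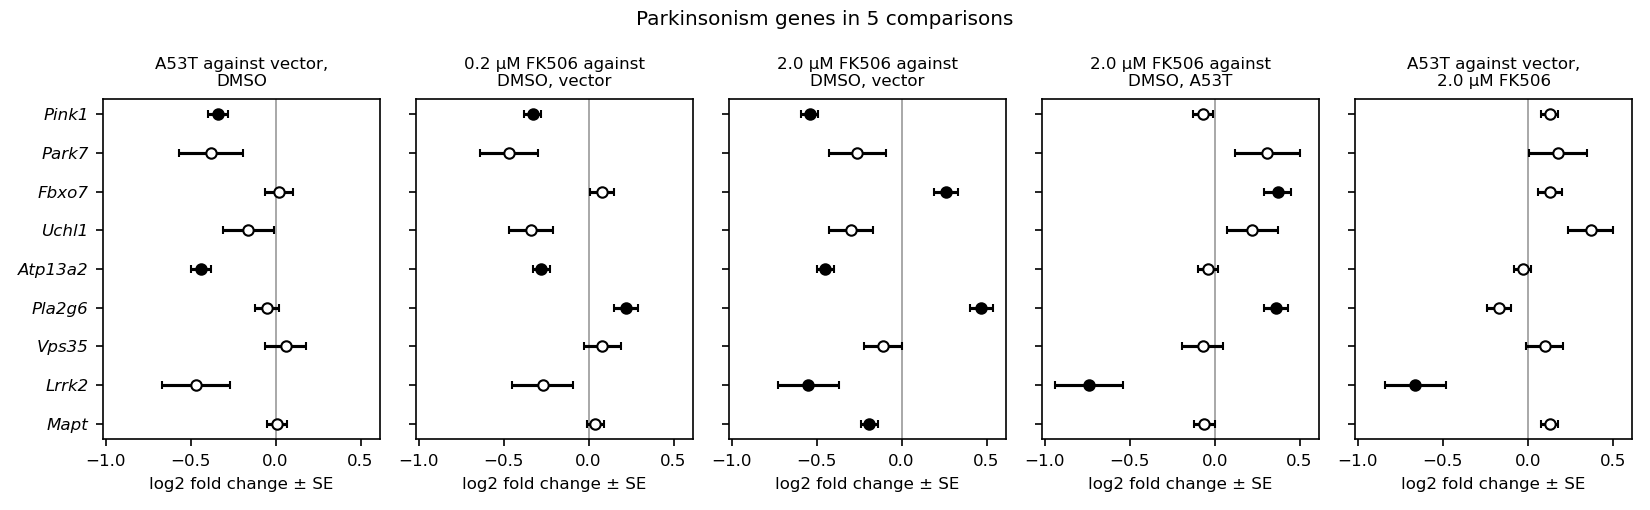
Log2 fold change of each of the 9 genes with its standard error from limma, in the comparison named above each panel; filled points have an adjusted p under 0.05 and open points do not. Atp13a2 and Pink1 lie below 0 in A53T against vector in DMSO (-0.44 and -0.34) and in 2.0 µM FK506 against DMSO in vector cultures (-0.45 and -0.54), and close to 0 at 2.0 µM in A53T cultures (-0.04 and -0.07).

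Atp13a2, the lysosomal polyamine exporter, had 4349 and 4225 normalized counts in A53T cultures in DMSO, against 5725, 5894 and 5773 in vector cultures in DMSO. The groups did not overlap, and the log2 fold change was -0.44 ± 0.06 (SE, limma adjusted p = 0.0005). FK506 was set against DMSO at each dose. In vector cultures Atp13a2 had 4866, 4764 and 4736 normalized counts at 0.2 µM (-0.28 ± 0.05, limma adjusted p = 0.0037) and 4196, 4347 and 4223 at 2.0 µM (-0.45 ± 0.05, adjusted p = 1.5e-05), so that both doses lay below every DMSO library. Atp13a2 was also lower at 2.0 than at 0.2 µM in vector cultures (-0.17 ± 0.05, limma adjusted p = 0.021), but this call ended without replicate 2 at 0.2 µM (adjusted p = 0.0527) or without replicate 1 or 3 at 2.0 µM (0.068 and 0.0575). The fall at 0.2 µM also ended under quantile normalization (-0.11, adjusted p = 0.063).

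Pink1, the mitochondrial kinase, had 1551 and 1541 normalized counts in A53T cultures in DMSO, against 1857, 2035 and 1977 in vector cultures in DMSO. The log2 fold change was -0.34 ± 0.06 (SE, limma adjusted p = 0.0027). This call ended with a replicate block by title numbers (-0.31), a fit that leaves out the A53T DMSO library that has no number. In vector cultures it had 1568, 1579 and 1521 normalized counts at 0.2 µM (-0.33 ± 0.05 against DMSO, limma adjusted p = 0.0016) and 1291, 1417 and 1333 at 2.0 µM (-0.54 ± 0.05, adjusted p = 4.3e-06). Every FK506 library lay below every DMSO library, and every library at 2.0 µM below every one at 0.2 µM (-0.21 ± 0.05, adjusted p = 0.0089).

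The A53T cultures differed from this at 2.0 µM. Atp13a2 had 4500, 4106 and 3945 normalized counts in A53T cultures at 2.0 µM, against 4349 and 4225 in A53T cultures in DMSO (-0.04 ± 0.06, limma adjusted p = 0.62). Pink1 had 1484, 1437 and 1484, against 1551 and 1541 (-0.07 ± 0.06, limma adjusted p = 0.32). The values overlapped for Atp13a2, and for Pink1 they lay just below those in DMSO. With the score on the shared axis as a covariate, Atp13a2 passed in A53T cultures at 2.0 µM (-0.12, limma adjusted p = 0.036). The effect of 2.0 µM FK506 in A53T cultures minus that in vector cultures, tested itself, was 0.46 ± 0.08 for Pink1 (limma adjusted p = 0.0029) and 0.41 ± 0.08 for Atp13a2 (adjusted p = 0.0048). These were the 2 of the 9 genes past the threshold in this difference, and 14.6% of all genes passed (8.14% higher, 6.45% lower). Without the 3 libraries that stood apart on the axis, Park7 (0.52, limma adjusted p = 0.00057) and Uchl1 (0.47, 0.00027) passed as well. In that fit 19.3% of all genes were higher and 18.5% lower in this difference. The difference also contains the vector cultures in DMSO, whose high levels are part of both falls described above. At 2.0 µM, the A53T and vector cultures did not pass the test for either gene. Pink1 had 0.13 ± 0.05 (limma adjusted p = 0.11) and Atp13a2 -0.03 ± 0.05 (0.73). Without the 3 libraries that stood apart, Pink1 passed in this comparison (0.15, limma adjusted p = 0.0493).

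**Figure D2:**
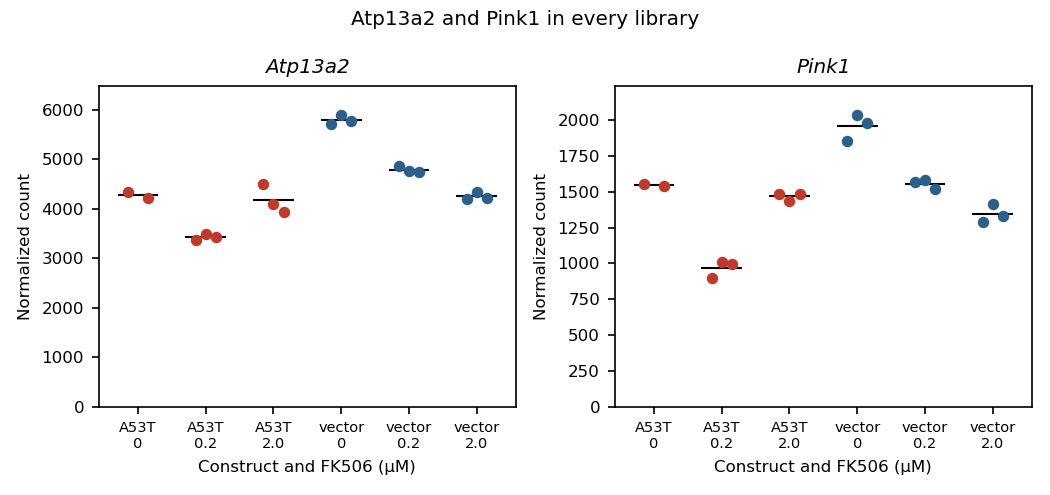
Normalized counts of Atp13a2 and Pink1 in each library, by group, with A53T cultures to the left of vector cultures and dose from DMSO to 2.0 µM FK506; points are libraries, lines are group means, and a dose of 0 is DMSO. Vector cultures in DMSO sit highest for both genes, at 5797 ± 87.4 for Atp13a2 and 1957 ± 90.7 for Pink1 (mean ± SD, n = 3), and A53T cultures at 0.2 µM lowest.

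Summed levels of marker genes are given beside these results. Each sum is weighted towards its most abundant genes. Gfap averaged 2.205e+04 normalized counts over all libraries in the astrocyte list and Sst 9615 in the interneuron list. Tagln averaged 2205 in the fibroblast and meningeal list used further on. Whether the other markers of a list changed in the same direction was not tested. The summed level of 13 measured astrocyte markers was 94311 to 97719 normalized counts in A53T cultures in DMSO, against 113101 to 114141 in vector cultures in DMSO. In vector cultures given FK506 the astrocyte sum was 77982 to 80868 at 0.2 µM and 53457 to 53914 at 2.0 µM. The sum of 10 GABAergic interneuron markers was 16928 to 17311 in A53T cultures in DMSO and 31376 to 35320 in vector cultures in DMSO, and 18199 to 20550 and 12808 to 14813 in vector cultures at 0.2 and 2.0 µM. In A53T cultures at 2.0 µM the astrocyte sum was 62206 to 63561 and the interneuron sum 11313 to 14235. Both lay below those of A53T cultures in DMSO. The sum of 8 measured markers of the oligodendrocyte lineage was 5011 to 5086 in A53T cultures at 2.0 µM and 3697 to 3727 in A53T cultures in DMSO; in vector cultures it was 4178 to 4269 in DMSO, 3467 to 3892 at 0.2 µM and 2369 to 2454 at 2.0 µM. The sum of 13 neuronal markers other than the genes described was 68403 to 69601 in A53T cultures in DMSO and 73652 to 78250 in vector cultures in DMSO, and the sum of 9 housekeeping genes 172682 to 174988 and 193184 to 200722. With FK506 the neuronal sum was 63645 to 65846 at 0.2 µM and 52790 to 53750 at 2.0 µM in vector cultures, and 56272 to 61778 at 2.0 µM in A53T cultures. The housekeeping sum was 145982 to 161201 at 0.2 µM and 142093 to 156071 at 2.0 µM in vector cultures, and 154111 to 173311 at 2.0 µM in A53T cultures. Mfap2, whose locus overlaps that of Atp13a2, had only 75.6 to 226 normalized counts and had log2 fold changes of -0.70 ± 0.14 in A53T against vector in DMSO (limma adjusted p = 0.0062) and 0.46 ± 0.13 at 2.0 µM in vector cultures (adjusted p = 0.0093). At 2.0 µM in A53T cultures it had 1.17 ± 0.14 (limma adjusted p = 0.00011), and the difference between the genotypes in the effect of 2.0 µM was 0.71 ± 0.19 (adjusted p = 0.028). The part of these markers and of Mfap2 in the results on Atp13a2 and Pink1 was not tested, and in these bulk samples fewer cells of a type and less RNA per cell cannot be told apart.

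The 250 bases upstream of the transcript start of Pink1, Atp13a2 and Pla2g6 are shown because these 3 genes passed the test in the most comparisons outside the A53T cultures at 0.2 µM. They are from RefSeq, build GRCr8, whereas the files were made with rn6. Capitals mark the E-box CACGTG, which is its own reverse complement, and the NFAT core GGAAA or its reverse complement TTTCC; NFAT is a calcineurin-regulated transcription factor. The windows are chr5:155825951-155826200 (minus strand) for Pink1, chr5:158575561-158575810 (plus strand) for Atp13a2 and chr7:112771610-112771859 (minus strand) for Pla2g6.

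Pink1: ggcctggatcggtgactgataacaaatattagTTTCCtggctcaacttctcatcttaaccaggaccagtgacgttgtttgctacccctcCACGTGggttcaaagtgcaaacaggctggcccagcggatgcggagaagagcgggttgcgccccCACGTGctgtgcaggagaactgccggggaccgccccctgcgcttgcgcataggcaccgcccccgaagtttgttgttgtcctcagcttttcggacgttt

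Atp13a2: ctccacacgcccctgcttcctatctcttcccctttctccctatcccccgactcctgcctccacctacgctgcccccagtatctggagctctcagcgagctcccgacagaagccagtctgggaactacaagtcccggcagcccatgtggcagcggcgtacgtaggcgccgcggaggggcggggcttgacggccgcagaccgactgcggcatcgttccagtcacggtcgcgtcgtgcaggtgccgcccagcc

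Pla2g6: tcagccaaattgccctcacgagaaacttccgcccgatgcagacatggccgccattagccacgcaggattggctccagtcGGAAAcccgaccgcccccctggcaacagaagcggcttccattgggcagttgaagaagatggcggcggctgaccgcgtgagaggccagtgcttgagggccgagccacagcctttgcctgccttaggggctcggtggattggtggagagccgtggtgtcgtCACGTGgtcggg

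The Pink1 window held 2 E-boxes and 1 NFAT core, the Pla2g6 window 1 of each, and the Atp13a2 window neither. The Pla2g6 window shown is the first of 2 listed starts; the other, chr7:112771497-112771746 (minus strand), held 1 E-box and 0 NFAT cores. An E-box occurred in 5.59% (1872) of 33469 RefSeq windows of the same length, and the NFAT core on either strand in 56.9% (19044). A match is a description of these letters only.

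At 2.0 µM FK506 Pla2g6 and Fbxo7 rose in both genotypes, and Mapt fell in vector cultures. Pla2g6, the phospholipase, had 1432, 1449 and 1379 normalized counts in vector cultures at 2.0 µM, against 1019, 973 and 1080 in vector cultures in DMSO (0.47 ± 0.07, limma adjusted p = 9.1e-05). At 0.2 µM it had 1236, 1202 and 1146 in vector cultures (0.22 ± 0.07, limma adjusted p = 0.038), so the 3 doses did not overlap. The rise at 0.2 µM was small and ended in several fits that left out 1 library, among them vector DMSO replicate 1 or 2 (adjusted p = 0.089 and 0.14) and any of the libraries at 0.2 µM (0.07, 0.1 and 0.062). The step between doses (0.25 ± 0.07, limma adjusted p = 0.012) ended without replicate 3 at 0.2 µM (0.0546). In A53T cultures Pla2g6 had 1366, 1183 and 1252 at 2.0 µM, against 944 and 1034 in DMSO (0.36 ± 0.07, limma adjusted p = 0.0035); without A53T DMSO replicate 1 this was 0.29 (adjusted p = 0.0533), and with only those groups in the fit the adjusted p was 0.0563.

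Fbxo7, the SCF subunit, had 2771, 2315 and 2473 normalized counts in A53T cultures at 2.0 µM, against 1939 and 1943 in A53T cultures in DMSO. The rise was 0.37 ± 0.08 (SE, limma adjusted p = 0.0043). In vector cultures it had 2265, 2448 and 2193 at 2.0 µM, against 1871, 1867 and 2009 in DMSO, with no overlap (0.26 ± 0.07, limma adjusted p = 0.0094). The libraries at 0.2 µM in vector cultures, with 2176, 1961 and 1941, overlapped those in DMSO (0.08 ± 0.07, limma adjusted p = 0.46). The Fbxo7 locus overlaps the synaptic vesicle gene Syn3 in the RefSeq annotation, and the counting strand was not given; Syn3, at 123 to 638 normalized counts, had log2 fold changes of 0.72 ± 0.14 at 2.0 µM in vector cultures (limma adjusted p = 0.00077) and 0.08 ± 0.15 in A53T cultures (adjusted p = 0.7).

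Mapt, which encodes tau, had 7897, 7882 and 7919 normalized counts in vector cultures at 2.0 µM, against 8900, 9324 and 8732 in vector cultures in DMSO. At 0.2 µM it had 8926, 9387 and 9350, which overlapped DMSO (0.04 ± 0.05, limma adjusted p = 0.62). The fall at 2.0 µM was -0.19 ± 0.05 (SE, limma adjusted p = 0.0084), and against 0.2 µM it was -0.22 ± 0.05 (adjusted p = 0.0047). Under quantile normalization the fall against DMSO was -0.08 (adjusted p = 0.36). The sum of 10 glutamatergic markers was 9307 to 10241 in vector cultures at 2.0 µM and 15668 to 17062 in DMSO, and 5850 to 7388 in A53T cultures at 2.0 µM and 12677 to 13321 in DMSO. The sum of 9 fibroblast and meningeal markers was 7028 to 8375 in vector cultures at 2.0 µM and 2890 to 3046 in DMSO, but 1957 to 2330 in A53T cultures at 2.0 µM and 2932 to 2966 in DMSO; the part of either list in the results at 2.0 µM was not tested. In A53T cultures Mapt had 8972, 8867 and 8132 at 2.0 µM, against 9018 and 9064 in DMSO, and did not pass (-0.06 ± 0.06, limma adjusted p = 0.37).

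**Figure D3:**
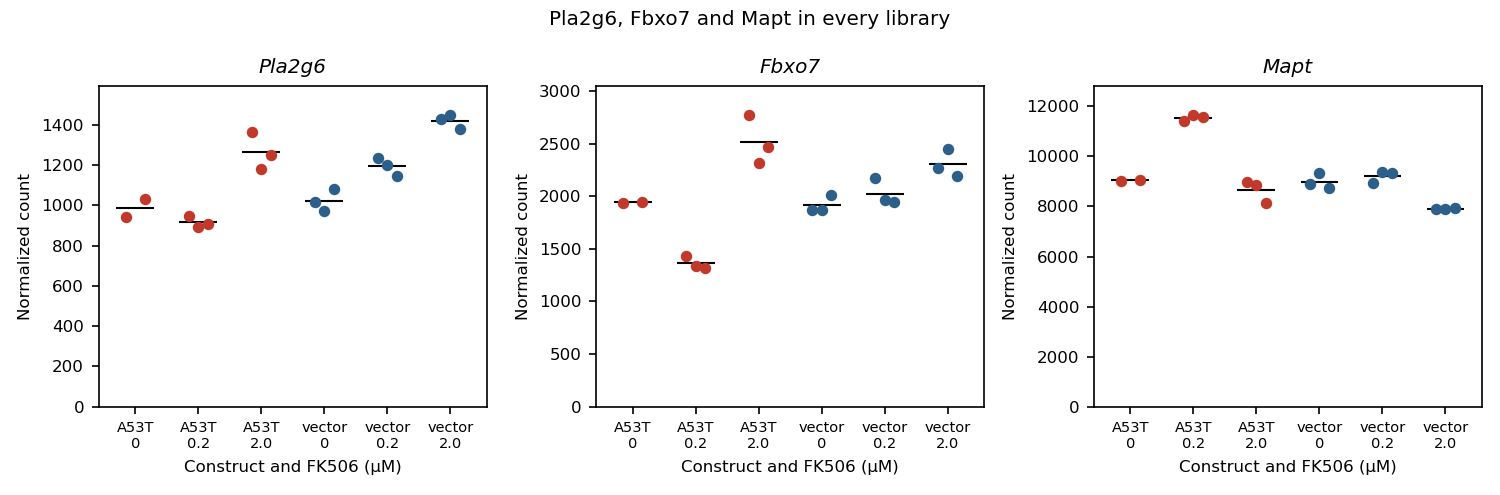
Normalized counts of Pla2g6, Fbxo7 and Mapt in each library, by group, laid out as for Atp13a2 and Pink1. Pla2g6 and Fbxo7 are higher at 2.0 µM than in DMSO in both genotypes (vector Pla2g6 1420 ± 36.5 against 1024 ± 53.6, mean ± SD, n = 3 each), and A53T cultures at 0.2 µM hold the highest Mapt values.

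Lrrk2, the Rab kinase, fell at 2.0 µM in both genotypes, at low normalized counts. It had 43.7, 60.0 and 64.7 normalized counts in A53T cultures at 2.0 µM, against 94.6 and 91.5 in A53T cultures in DMSO. The fall was -0.74 ± 0.20 (SE, limma adjusted p = 0.013). In vector cultures it had 100, 89.1 and 75.9 at 2.0 µM, against 155, 124 and 112 in DMSO (-0.55 ± 0.18, limma adjusted p = 0.021). The libraries at 0.2 µM in vector cultures, with 94.3, 119 and 110, overlapped those in DMSO (-0.27 ± 0.18, limma adjusted p = 0.3). Levels at 2.0 µM were lower in A53T than in vector cultures (-0.66 ± 0.18, limma adjusted p = 0.022). This was the 1 gene of the 9 past the threshold in that comparison, where 19.6% of all genes passed (9.88% higher, 9.70% lower). The calls on Lrrk2 depended on single libraries. The one in A53T cultures ended without A53T DMSO replicate 1 (-0.71, adjusted p = 0.078) or its other library (-0.76, 0.07). The one in vector cultures ended without DMSO replicate 1 (-0.42, adjusted p = 0.097) or replicate 3 at 2.0 µM (-0.45, 0.087), and the one between genotypes without replicate 1 of A53T (-0.49, 0.07) or of vector (-0.56, 0.094) at 2.0 µM. With only the groups compared in the fit, the call in A53T cultures (limma adjusted p = 0.074) and the one between genotypes (0.11) ended. The one between genotypes also ended under quantile normalization (-0.43, limma adjusted p = 0.0582) and without the 3 libraries that stood apart (-0.48, 0.0522). A replicate block by title numbers ended the calls in A53T cultures (-0.78), in vector cultures (-0.55) and between genotypes (-0.66). In DMSO, Lrrk2 was not past the threshold between A53T and vector cultures (-0.47 ± 0.20, limma adjusted p = 0.14), but was with only the groups compared in the fit (adjusted p = 0.032) and without the 3 libraries that stood apart (0.033).

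With all samples in the fit, Park7, Uchl1 and Vps35 passed no test in the 7 comparisons that do not involve the A53T cultures at 0.2 µM. Park7 and Uchl1 passed in several of them without the 3 libraries that stood apart, as given below. Park7, the redox protein, had 6264, 4432 and 4023 normalized counts in A53T cultures at 2.0 µM, against 4035 and 3761 in A53T cultures in DMSO. Uchl1, the neuronal ubiquitin hydrolase, had 43479, 33199 and 30257, against 30618 and 29678. In each case the first A53T library at 2.0 µM stood above the others, and the values of the rest overlapped those in DMSO. This library differed from the mean of the other 2 by 0.57 for Park7 and 0.46 for Uchl1 on the log2 scale, and by -0.42 for Vps35, the retromer subunit. Vps35 had 2659, 3647 and 3485 in A53T cultures at 2.0 µM, against 3463 and 3333 in DMSO, so the groups overlapped. The fold changes were 0.31 ± 0.19 for Park7 (limma adjusted p = 0.2), 0.22 ± 0.15 for Uchl1 (0.24) and -0.07 ± 0.12 for Vps35 (0.65).

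In vector cultures Park7 had 4419, 3338 and 3355 normalized counts at 0.2 µM and 3970, 5194 and 3710 at 2.0 µM, against 4712, 5000 and 5532 in DMSO. Uchl1 had 31195, 24101 and 25037 at 0.2 µM and 25715, 31131 and 25384 at 2.0 µM, against 31692, 33803 and 35328 in DMSO. For both genes the libraries at 0.2 µM lay below every DMSO library, as did those of Uchl1 at 2.0 µM, while 1 Park7 library at 2.0 µM lay within the DMSO range. Vps35 had 3431, 3352 and 3500 at 0.2 µM and 3127, 2718 and 3240 at 2.0 µM, against 3233, 3544 and 3000 in DMSO, with overlap at both doses.

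Vector replicate 1 at 0.2 µM and replicate 2 at 2.0 µM stood apart in the same genes. Park7 differed there from the other 2 libraries by 0.40 and 0.44, and Uchl1 by 0.34 and 0.29, on the log2 scale, while Pink1 differed by 0.02 and 0.11. On the loadings of the shared axis Park7 ranked at percentile 3.37 of all genes and Uchl1 at 8.38, and Lrrk2 at 80.3 and Vps35 at 74.4. Park7 at 0.2 µM in vector cultures had a log2 fold change of -0.47 ± 0.17 (limma adjusted p = 0.071), and -0.60 without replicate 1 at 0.2 µM (adjusted p = 0.027). Uchl1 had -0.34 ± 0.13 (limma adjusted p = 0.096), and -0.45 without that library (adjusted p = 0.03). For Vps35 the same comparison gave 0.08 ± 0.11 (limma adjusted p = 0.64). At 2.0 µM Uchl1 had -0.30 ± 0.13 (limma adjusted p = 0.083), and -0.39 without replicate 2 at 2.0 µM (adjusted p = 0.04). Park7 had -0.26 ± 0.17 there (limma adjusted p = 0.23). Without the 3 libraries that stood apart, Park7 passed in vector cultures at 0.2 µM (-0.60, limma adjusted p = 2e-06), at 2.0 µM (-0.40, 3.8e-05) and between doses (0.20, 0.026). In the same fit Uchl1 passed at 0.2 µM (-0.45, limma adjusted p = 4.3e-06) and 2.0 µM (-0.39, 5.5e-06). The libraries left out were ones in which Park7 and Uchl1 themselves deviated. Leaving them out narrows the spread of these genes, so the low p-values are no separate support. In that fit 25.1% of all genes were higher and 27.4% lower at 0.2 µM in vector cultures. At 2.0 µM it was 30.9% and 30.4%, and between doses 25.1% and 22.9%. In A53T against vector in DMSO, Park7 had -0.38 ± 0.19 (limma adjusted p = 0.2), Uchl1 -0.16 ± 0.15 (0.52) and Vps35 0.06 ± 0.12 (0.76). The A53T values of Park7 lay below all 3 vector values, and Park7 and Uchl1 passed with only the groups compared in the fit (adjusted p = 0.0002 and 0.0413) and without the 3 libraries that stood apart (0.00022 and 0.025). In the same comparison Fbxo7 had 0.02 ± 0.08 (limma adjusted p = 0.89), Mapt 0.01 ± 0.06 (0.93) and Pla2g6 -0.05 ± 0.07 (0.69). Between A53T and vector cultures at 2.0 µM, Uchl1 had 0.37 ± 0.13 (limma adjusted p = 0.07), Park7 0.18 ± 0.17 (0.45) and Vps35 0.10 ± 0.11 (0.52). Fbxo7 had 0.13 ± 0.07 (limma adjusted p = 0.22) and Pla2g6 -0.17 ± 0.07 (0.095). Without the 3 libraries that stood apart, Uchl1 (0.31, limma adjusted p = 0.00068) and Pla2g6 (-0.21, 0.028) passed in this comparison.

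**Figure D4:**
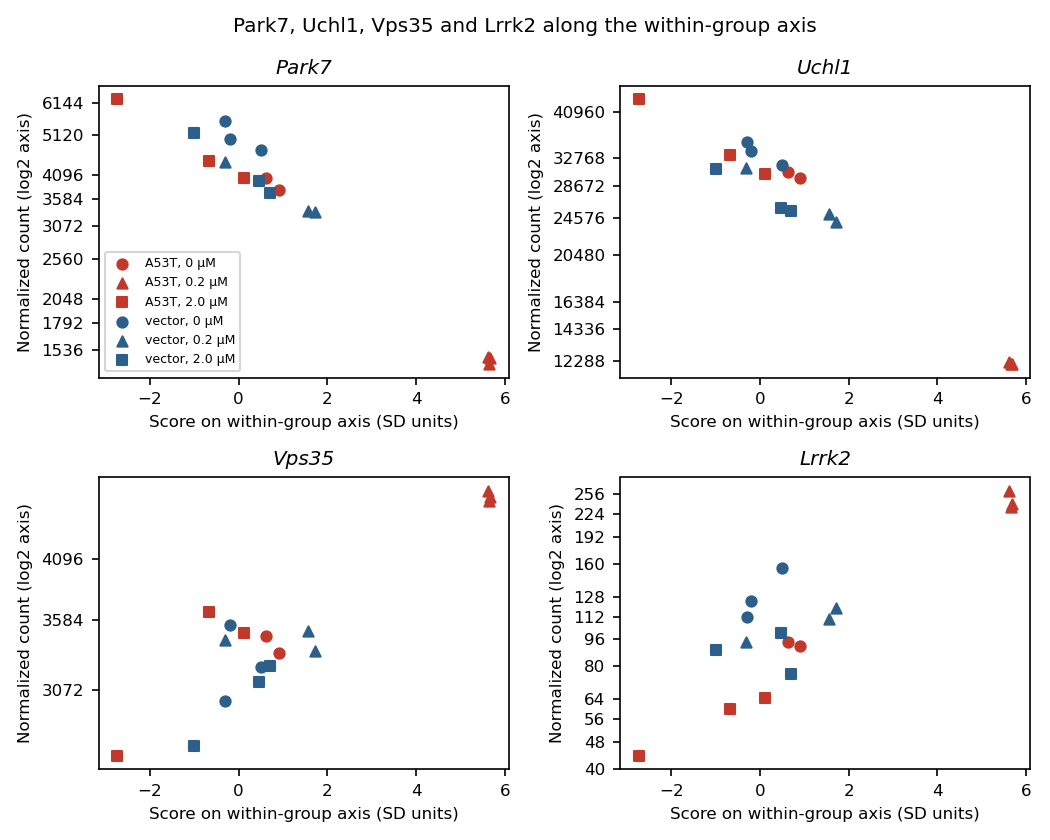
Normalized counts of Park7, Uchl1, Vps35 and Lrrk2 in each library (log2 vertical axis) against the library's score on the within-group axis in SD units; colour marks the construct, the symbol the dose, and 0 µM is DMSO. A53T libraries at 0.2 µM score 5.62 to 5.67, apart from all other libraries, with the lowest Park7 and Uchl1 values and the highest Vps35 and Lrrk2 values.

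In A53T cultures at 0.2 µM, 8 of the 9 genes passed against A53T in DMSO (3 higher, 5 lower), where 67.8% of all genes did (33.6% higher, 34.2% lower), and 9 of 9 passed against vector cultures at 0.2 µM (3 higher, 6 lower), where 68.9% did (33.8% higher, 35.1% lower). Park7 had 1471, 1474 and 1418 normalized counts at 0.2 µM in A53T cultures, against 4035 and 3761 in A53T in DMSO (-1.42 ± 0.25, limma adjusted p = 0.00039). Uchl1 had 12113, 12230 and 12128, against 30618 and 29678 (-1.31 ± 0.20, limma adjusted p = 0.00016). All 3 libraries stood below every library of the other groups for both genes. They did so too for Pink1 with 896, 1013 and 995 (-0.67 ± 0.08, limma adjusted p = 3.3e-05). The same held for Atp13a2 with 3375, 3490 and 3429 (-0.32 ± 0.08, limma adjusted p = 0.0027) and Fbxo7 with 1430, 1340 and 1322 (-0.51 ± 0.11, 0.0014). Lrrk2, Mapt and Vps35, with the values below, stood above every library of the other groups. The share of all genes that separated this group from every other library, in either direction, was not counted. These separations are therefore not read as particular to the 9 genes. Pla2g6, with 946, 895 and 910, against 944 and 1034, did not pass (-0.11 ± 0.10, limma adjusted p = 0.35). Lrrk2 had 239, 262 and 234, against 94.6 and 91.5 (1.39 ± 0.27, limma adjusted p = 0.00068). Mapt had 11416, 11648 and 11560, against 9018 and 9064 (0.35 ± 0.07, limma adjusted p = 0.0013), and Vps35 4698, 4765 and 4658, against 3463 and 3333 (0.47 ± 0.16, adjusted p = 0.02; 0.44 and 0.067 without the A53T DMSO library that has no number). The group enters the model as 1 sample assumed to vary like the others, and its RNA differed from that of other groups in the ribosomal protein sum given above; its part in these values was not tested. Against vector cultures at 0.2 µM, Park7 had -1.34 ± 0.24 (limma adjusted p = 0.00041), Uchl1 -1.13 ± 0.19 (0.00028), Pink1 -0.68 ± 0.07 (1.7e-05), Fbxo7 -0.57 ± 0.10 (0.00047), Atp13a2 -0.48 ± 0.07 (0.00014) and Pla2g6 -0.38 ± 0.09 (0.0034). Lrrk2 had 1.18 ± 0.25 (limma adjusted p = 0.0013), Vps35 0.46 ± 0.15 (0.017) and Mapt 0.32 ± 0.07 (0.0015). With the axis score as a covariate, which extrapolates for this group, 4 of the 9 genes passed against DMSO.

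Between the doses, 9 of 9 passed at 2.0 against 0.2 µM in A53T cultures (6 higher, 3 lower), where 77.3% of all genes did (38.7% higher, 38.5% lower), among them Park7 (1.73 ± 0.24, limma adjusted p = 3.1e-05) and Lrrk2 (-2.13 ± 0.25, adjusted p = 1.5e-05). Uchl1 had 1.53 ± 0.19 (limma adjusted p = 1.7e-05), Fbxo7 0.88 ± 0.10 (1.4e-05), Pink1 0.60 ± 0.07 (1.8e-05), Pla2g6 0.46 ± 0.09 (0.00064) and Mapt -0.42 ± 0.07 (0.00016). With only these groups in the fit, Atp13a2 (0.28 ± 0.07 with all groups) had an adjusted p of 0.13 and Vps35 (-0.54 ± 0.15) of 0.073. The effect of 0.2 µM FK506 differed between A53T and vector cultures for 7 of the 9 genes (2 higher, 5 lower), where 47.3% of all genes passed (22.1% higher, 25.2% lower).

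Genes of the same pathways, from lists written for this description, were counted in vector cultures at 2.0 µM against DMSO. Of 40 measured genes of mitochondrial quality control, 11 rose and 7 fell: Usp30, a deubiquitinase that opposes mitophagy, rose by 0.61 ± 0.05 on the log2 scale (limma adjusted p = 1e-06), and Tax1bp1, an autophagy receptor, fell (-0.37 ± 0.04, adjusted p = 2e-05). Of 20 genes of the retromer, sorting nexins and WASH complex, 1 rose and 6 fell, among them the retromer subunits Vps26b (-0.45 ± 0.05, limma adjusted p = 5.5e-06) and Vps29 (-0.61 ± 0.07, adjusted p = 1.4e-05), next to Vps35 at -0.11 ± 0.11 (adjusted p = 0.44). Of 26 LRRK2 substrates, regulators and partners, 3 rose and 9 fell, including the 14-3-3 gene Ywhah (-0.81 ± 0.08, limma adjusted p = 4.1e-06). Of 14 P5-type ATPase and polyamine genes, 5 rose and 1 fell: Sat1, which acetylates polyamines, rose by 0.88 ± 0.09 (limma adjusted p = 5e-06) and Smox, a spermine oxidase, fell (-0.52 ± 0.09, adjusted p = 0.00035).

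Of 26 microtubule-associated genes, 3 rose and 12 fell, among them the tubulin Tubb4a (-0.98 ± 0.05, limma adjusted p = 2.7e-08). Of 32 tau kinases and phosphatases, 3 rose and 11 fell, among them the PP2A regulatory subunit Ppp2r2b (-0.72 ± 0.06, limma adjusted p = 1.2e-06). Of 22 phospholipase A2 and related genes, 5 rose and 7 fell: Pla2g4b rose by 1.38 ± 0.11 (limma adjusted p = 1.1e-06) and Pla2g5 fell (-3.64 ± 0.41, adjusted p = 1.4e-05). Of 22 peroxiredoxin and thioredoxin genes, 3 rose and 5 fell, with Gpx1, a glutathione peroxidase, at 1.46 ± 0.17 (limma adjusted p = 2.3e-05). Of 19 ubiquitin hydrolase, ubiquitin and SCF genes, 6 rose and 2 fell, with the F-box gene Btrc at 0.54 ± 0.06 (limma adjusted p = 1.4e-05). Of 14 other parkinsonism genes, 1 rose and 5 fell, among them Tmem175, a lysosomal channel (-0.60 ± 0.06, limma adjusted p = 4.5e-06). For all genes, 23.4% rose and 23.8% fell in this comparison. In A53T cultures at 2.0 µM against DMSO Tmem175 also fell (-0.29 ± 0.07, limma adjusted p = 0.005). Without the 3 libraries that stood apart (A53T replicate 1 and vector replicate 2 at 2.0 µM, vector replicate 1 at 0.2 µM), 30.9% of all genes rose and 30.4% fell at 2.0 µM in vector cultures. The lists then gave 14 higher and 14 lower for mitochondrial quality control, 8 and 8 for ubiquitin hydrolase, ubiquitin and SCF genes, 5 and 11 for peroxiredoxins and thioredoxins, and 6 and 4 for the polyamine genes. They gave 7 and 15 for tau kinases and phosphatases, 5 and 14 for microtubule-associated genes, 1 and 9 for the retromer list, 5 and 11 for LRRK2 partners, 5 and 8 for phospholipases and 2 and 5 for other parkinsonism genes.

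Over all 11 comparisons Pink1 passed in 9, Atp13a2 in 8, and Lrrk2 and Pla2g6 in 7 each; of the tied genes Lrrk2, with the larger sum of absolute fold changes, was taken. The genes most like Pink1, Atp13a2 and Lrrk2 were found as those whose log2 profile, centred over the 15 samples of the fit, had the smallest root mean square difference from theirs. For Pink1, whose own root mean square deviation was 0.251, these were Ctbp1, Rab3a and Efhd2, at 0.056, 0.057 and 0.062. For Atp13a2 (0.210) they were Atf6b, Tpm1 and Thtpa, at 0.068, 0.068 and 0.070, and for Lrrk2 (0.562) Dtx4, Cttnbp2 and Clip1, at 0.174, 0.177 and 0.192.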

How the data were processed

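Rat cortical cultures were sequenced as 17 libraries from a stranded mRNA kit, per the labels' protocols. The submitters' processing notes list FastQC, TopHat and HTSeq with build rn6. Versions, the counting strand and the way of normalizing are not given in the sources used here. What the authors deposited is a signal, gene counts after normalization by the authors, not whole reads, so no count model was used. The table held 11247 labels, of which 10458 matched a current RefSeq symbol and 23 looked like dates, and 0 columns of other samples. Titles number the 2 A53T DMSO libraries 1 and 2 while their columns carry 1 and 3, so the second was used without a number.

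The fit used limma 3.58.1 with an intensity trend (R 4.3.3) on log2(value + 1) of 15 samples, 1 mean for each of 6 groups and 11 contrasts. P-values are two-sided, adjusted by Benjamini-Hochberg across the table, with a threshold of 0.05. The minimum mean of 1 removed no gene (lowest mean 3.65). Fold changes on this scale understate the change of low genes. The script was tested on simulated data with independent noise for each gene, which did not hold the axis shared across groups. The axis within groups is the leading component of the deviations from group means of 14 libraries, and held 54.3% of their variance. The members and lists were chosen with earlier results of these data known. All 9 members were fitted in all contrasts, and the text names those each comparison turns on, at most 3 genes per list by smallest p, and the 3 genes most like each of the 3 members with the most comparisons past the threshold. A few single-gene values are left out and not reported here. Alternatives were pseudocounts of 0.25 and 4, no filter and a minimum mean of 50, median-of-ratios and quantile normalization, 17 separate libraries, only the groups compared, no 3 libraries that stood apart, each library left out, and a replicate block; the axis score as covariate the block by column number and the list counts without the 3 libraries were added after the data were seen.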

Additional observations from a re-analysis of the deposited data

Results flagged for a closer look

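FK506 effects that differed between A53T and vector cultures by a test of the difference itself are given here as values, each as the effect in A53T cultures minus that in vector cultures on the log2 scale. At 0.2 µM they were -0.96 for Park7, -0.34 for Pink1, -0.59 for Fbxo7, -0.97 for Uchl1, 0.31 for Mapt, 1.66 for Lrrk2 and -0.33 for Pla2g6 (limma, adjusted p from 0.0029 to 0.04). All of these rest on A53T cultures at 0.2 µM, which count as 1 sample and lie outside the other libraries on the shared axis. The value for Park7 ended without A53T DMSO replicate 1 (-0.90, adjusted p = 0.064), and that for Pla2g6 without vector DMSO replicate 1 (0.068) or 2 (0.076) and in several other single-library fits.

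At 2.0 µM the differences were 0.46 for Pink1 and 0.41 for Atp13a2 (limma, adjusted p = 0.0029 and 0.0048). Both passed in every fit that left out 1 library, but not in the fit with a block on the title numbers described with the other alternatives.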

How the results depend on the processing

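Of 99 gene-by-comparison values, 54 were past the threshold. None changed under pseudocounts of 0.25 or 4, no filter or a minimum mean of 50. Median-of-ratios rescaling ended 1 call, quantile normalization ended 3 and added 4, and 17 separate libraries added 5; the cause was not tested. Quantile normalization moved the median of all genes in comparisons involving A53T at 0.2 µM by -0.21 to 0.23 and, for the 0.2 µM difference between genotypes, gave 2294 higher and 4126 lower calls against 2491 and 2830.

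The count of the 9 genes past the threshold in A53T against vector in DMSO was 2, and was 5 when only the groups compared were fitted, 5 without the 3 libraries that stood apart and 4 with the axis score as covariate; over all genes it was 1579, and 4174, 4390 and 3842. Without the 3 libraries or with the covariate, the count at 0.2 µM in vector cultures was 5 or 7 against 3. Over all genes it was 5897 or 3735 against 2056. Between genotypes at 2.0 µM the count was 3 or 5 against 1, and over all genes 3763 or 3900 against 2202. Without the 3 libraries the genes there were Pink1, Uchl1 and Pla2g6, and Lrrk2 no longer passed. In that comparison 17 libraries gave 3, and only the groups compared gave 0 (688 over all genes). In A53T at 2.0 µM only the groups compared gave 1 against 3 (1786 against 4233 over all genes). Without the 3 libraries the 2.0 µM difference gave 4 against 2 (4254 against 1641 over all genes). With the covariate, A53T at 0.2 µM gave 4 against 8 in DMSO, 3 against 9 between doses, 5 against 9 between genotypes and 4 against 7 in the difference. Over all genes these were 3316 against 7628, 1681 against 8692, 3236 against 7746 and 2205 against 5321.

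With the covariate, 6 values changed sign. Uchl1 passed between doses in vector (-0.13, limma adjusted p = 0.00046) and at 2.0 µM in A53T (-0.11, 0.016), where it had not passed without it. Vps35 no longer passed at 0.2 µM in A53T (-0.02, limma adjusted p = 0.95), between doses in A53T (0.13, 0.69) or between genotypes at 0.2 µM (-0.01, 0.98). Atp13a2 no longer passed between doses in A53T (-0.01, limma adjusted p = 0.95).

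Among 22 pairs of same-numbered libraries, 9 had correlated deviations over 0.1 (range -0.51 to 0.67). Libraries with different numbers were not compared, so these values cannot decide whether the samples pair by title numbers. A replicate block on them leaves out the unnumbered library and so rests on 1 A53T DMSO library. In it the calls on the 2.0 µM difference ended for Pink1 (0.43) and Atp13a2 (0.41). Calls over all genes fell too in that difference and in A53T against vector in DMSO, so the loss was not particular to these genes. This block ended 12 calls in all, and a block by column numbers ended 2.

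Leaving out each library gave counts of 2 to 2 (A53T against vector, DMSO), 2 to 5 and 5 to 7 (0.2 and 2.0 µM, vector), 3 to 5 (doses, vector), 7 to 8 and 1 to 3 (0.2 and 2.0 µM, A53T), 9 to 9 (doses, A53T), 9 to 9 and 0 to 3 (genotypes at 0.2 and 2.0 µM), and 6 to 8 and 2 to 3 (differences at 0.2 and 2.0 µM). A53T in DMSO has 2 libraries and A53T at 0.2 µM 1 sample, and raw depth is unknown.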

Other observations

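Between A53T and vector cultures at 2.0 µM FK506, all lists were counted as well, and genes are named from those around tau and the polyamines. The others gave 7 higher and 1 lower for mitochondrial quality control (11 and 2 without the 3 libraries that stood apart). They gave 4 and 1 for the retromer list, 4 and 1 for peroxiredoxins and thioredoxins, and 2 and 2 for LRRK2 partners. Phospholipases gave 1 and 3, ubiquitin hydrolase, ubiquitin and SCF genes 1 and 0, and other parkinsonism genes 1 and 2. Of 32 measured tau kinases and phosphatases 1 rose and 10 fell, among them Cdk5r2, an activator of CDK5 (-0.60 ± 0.12, limma adjusted p = 0.0046), and Mark4, a microtubule-affinity kinase (-0.24 ± 0.05, adjusted p = 0.0051). Of 26 microtubule-associated genes 6 rose and 0 fell, among them the neuronal tubulin Tubb3 (0.20 ± 0.04, limma adjusted p = 0.0064) and the stathmin Stmn1 (0.50 ± 0.12, adjusted p = 0.014). Of 14 P5-type ATPase and polyamine genes 3 rose and 0 fell, including Smox (0.56 ± 0.09, limma adjusted p = 0.0011). For all genes, 9.88% rose and 9.70% fell in this comparison. Without the 3 libraries that stood apart, A53T replicate 1 at 2.0 µM among them, the counts were 3 higher and 17 lower for tau kinases and phosphatases, 10 and 6 for microtubule-associated genes and 5 and 1 for the polyamine genes, where 16.6% of all genes rose and 16.8% fell. At 2.0 µM the sum of 9 fibroblast and meningeal markers was 1957 to 2330 normalized counts in A53T cultures and 7028 to 8375 in vector cultures, that of 13 neuronal markers 56272 to 61778 and 52790 to 53750, and that of 8 oligodendrocyte-lineage markers 5011 to 5086 and 2369 to 2454; their part in these counts was not tested. Mapt itself was at 0.13 ± 0.05 (limma adjusted p = 0.083) and Atp13a2 at -0.03 ± 0.05 (adjusted p = 0.73).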
